A study of Homo sapiens with 8 samples.

Results

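The 6 genes described here encode ligands of the epidermal growth factor receptor (EGFR): amphiregulin (AREG), epiregulin (EREG), epigen (EPGN), betacellulin (BTC), heparin-binding EGF-like growth factor (HBEGF) and transforming growth factor alpha (TGFA). Peaks from 5 chromatin immunoprecipitation and sequencing (ChIP-seq) lists were taken when their centre lay within 100 kb of an hg19 start site of one of these genes. This gave 58 of 51828 deposited peaks: 48 of 38186 TEAD1 peaks, 10 of 12188 TEAD4 peaks, and none of the 847 HA-YAP5SA, 454 YAP or 153 TAZ peaks. A peak shared by neighbouring genes was counted once. The choice used position only and not the score of a peak.

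The lists come from HuCCT1, an established human bile duct cancer cell line. The series has 8 libraries, 1 for each of YAP, TAZ, TEAD1, TEAD4, HA-YAP5SA, IgG, input and GFP. HA-YAP5SA is a YAP form whose LATS-kinase serines are replaced by alanine, recovered through its HA tag, and it is not the cell's own YAP. The GFP library is described as the background of the HA procedure, and GFP, IgG and input were not analysed here. The labels name no treatment, and do not say which of the other libraries came from cells with the tagged form. With 1 library per antibody no count has a replicate check, the depth of each library is unknown, and every interval below covers counting error over peaks only.

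EGFR ligands are made as membrane-anchored precursors, from which metalloproteases release the soluble growth factor. The ligand then binds EGFR on the same or a neighbouring cell and starts growth signalling through the MAP kinase and PI3 kinase pathways, which biliary epithelium uses in repair. YAP and TAZ are Hippo-pathway coactivators that reach DNA mainly through TEAD factors, and AREG is a ligand whose expression has been tied to YAP in other epithelial cells. TEAD factors often bind far from start sites, in enhancers, so a wide window was used around each gene.

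EPGN, EREG and AREG lie side by side on chromosome 4, with start sites at 75174190, 75230860 and 75310853 (hg19), all on the plus strand. EPGN and EREG start 56670 bp apart and EREG and AREG 79993 bp apart, so their windows overlap and form 1 joined locus of 336.7 kb. BTC starts 409.0 kb beyond AREG, at 75719896, and is read from the minus strand. HBEGF starts at 139726188 on chromosome 5 and TGFA at 70781147 on chromosome 2, both on the minus strand. Distances below are in the direction of transcription, so that a downstream peak lies past the start site. In the RefSeq gene order (GRCh38.p14) the next coding gene before EPGN is MTHFD2L, and PARM1 lies beyond BTC. HBEGF lies between SLC4A9 and PFDN1, and TGFA between ADD2 and FAM136A. A peak in a window is therefore near a ligand gene but was not assigned to it, and exons, introns and UTRs of hg19 were not used here.

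One ligand promoter had a TEAD1 peak within 1 kb of its start site, that of EREG. Its sequence is shown because it was also the only one of the 6 ligand genes whose RefSeq promoter held the letters GGAATG, the core of the TEAD recognition motif, on either strand (read as CATTCC on the other strand). The stretch runs from 250 bases before to 50 bases after the RefSeq start (GRCh38.p14, chr4:74364895-74365194, plus strand), 5′ to 3′, with the motif in capitals.

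EREG promoter: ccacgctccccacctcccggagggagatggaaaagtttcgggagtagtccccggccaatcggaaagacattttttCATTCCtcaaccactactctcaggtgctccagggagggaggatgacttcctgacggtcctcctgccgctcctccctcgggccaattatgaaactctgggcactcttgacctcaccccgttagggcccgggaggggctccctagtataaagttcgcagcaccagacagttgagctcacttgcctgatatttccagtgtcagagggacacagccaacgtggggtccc

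The motif spans bases -175 to -170, counted back from the start. GGAATG or its reverse stands in 4928 of 35116 RefSeq promoters of this length (14%), so 1 ligand gene in 6 is close to that share. The AP-1 motif TGANTCA, which reads the same on both strands, was in none of the ligand promoters and in 7.71% of all promoters. The 6 genes matched 7 promoters, as TGFA has 2 in the table. With no AP-1 match in these promoters, there was none that could overlap the TEAD motif. The TEAD1 peak at EREG (chromosome 4, 75231363 to 75231840) covered bases 503 to 980 past the hg19 start, so it lay downstream of the stretch printed here. Its score of 101 ranked at the 16.9th percentile of the TEAD1 list, and no TEAD4 peak lay on it. The score is the authors' own value for each peak, on a scale that is not stated, and is used only to rank peaks within a list.

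No TEAD1 peak covered any of the 6 start sites. The nearest TEAD1 centre was 0.74 kb past the start of EREG, 1.48 kb past that of HBEGF, 1.69 kb past that of AREG and 2.0 kb past that of TGFA. At EPGN the nearest centre was 11.24 kb downstream, and at BTC it was 11.19 kb upstream. These nearest peaks were mostly of low or middle rank: their scores were 97.5 at HBEGF (14.7th percentile), 118 at EPGN (27.4th), 136 at TGFA (36.2nd), 190 at AREG (53.3rd) and 268 at BTC (67.6th). None of the 6 nearest peaks overlapped TEAD4. At BTC the nearest peak was also the highest-scoring one, while at the other 5 genes the highest-scoring TEAD1 peak of the window lay farther out.

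**Figure D1:**
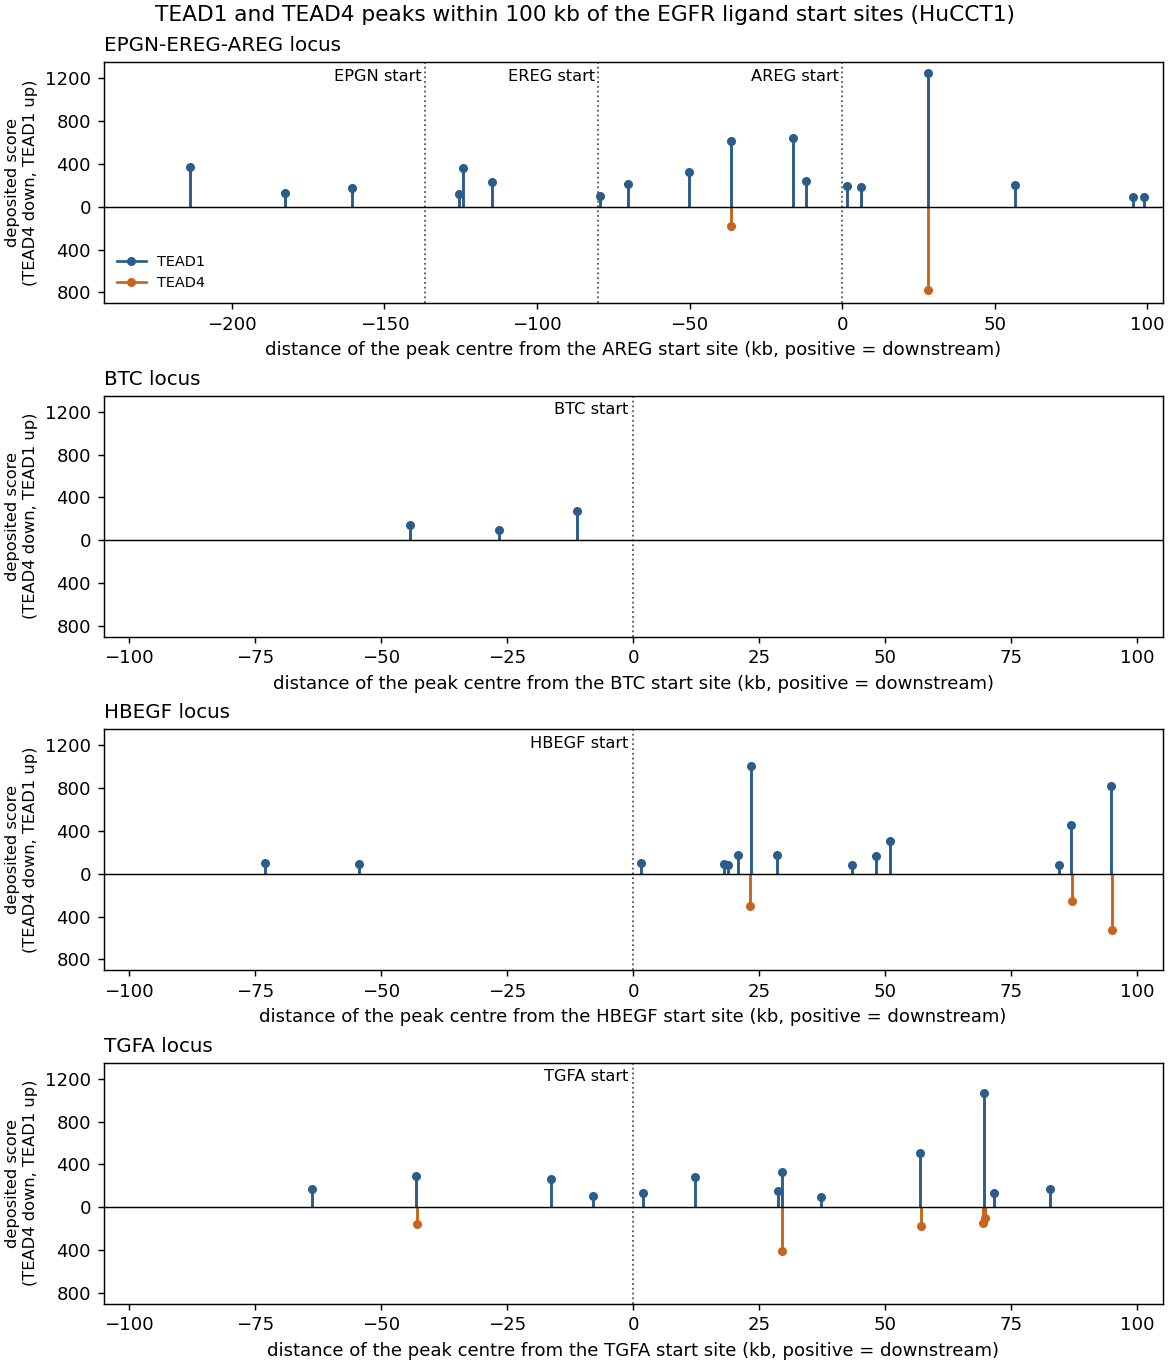
Peaks within 100 kb of each start site. The x axis is the distance of the peak centre from the start site in kb, along the direction of transcription (from AREG in the joined locus), and the y axis is the deposited score, with TEAD1 upward and TEAD4 downward, whose scales need not be the same. Dotted lines mark start sites; the highest TEAD1 peaks, at scores of 1244, 1064 and 1004, stand 28.19 kb past AREG, 69.64 kb past TGFA and 23.43 kb past HBEGF.

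The loci differed in how many TEAD1 peaks they held. HBEGF had 14 TEAD1 peaks in its 200 kb window, TGFA 13, EREG 12, AREG 12, EPGN 9 and BTC 3. The windows of EPGN, EREG and AREG share peaks (9 peaks stand in 2 windows and 3 in all 3), and the joined locus held 18. To read these counts, the placed chromosomes were cut into 15452 tiles of 200 kb, assembly gaps included, which held 2.0 TEAD1 peaks at the median (interquartile range 0 to 4) and 2.47 on average. At least 14 TEAD1 peaks stood in 0.699% of tiles, at least 13 in 0.938%, at least 12 in 1.43%, at least 9 in 4.69% and at least 3 in 37.7%. The windows of HBEGF and TGFA thus held counts that few tiles reach, and the BTC window a count that many tiles reach. These counts take peaks of all scores. At or above the list's median score HBEGF kept 4 TEAD1 peaks, TGFA 6 and the wider joined locus 12. Tile shares for these smaller counts are not given. The counts of AREG and EREG include 5 and 4 peaks that recur at a fixed spacing near AREG (the pairs are given with the AREGB copy). Without them AREG had 7 TEAD1 peaks, a count that 9.81% of tiles reach, and EREG 8, which 6.91% of tiles reach. Among tiles with any TEAD1 peak, 1.05% held at least 14 and 56.7% at least 3. Tiles are placed without regard to genes, whereas these windows are centred on start sites, so the shares describe density and are not a test.

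**Figure D2:**
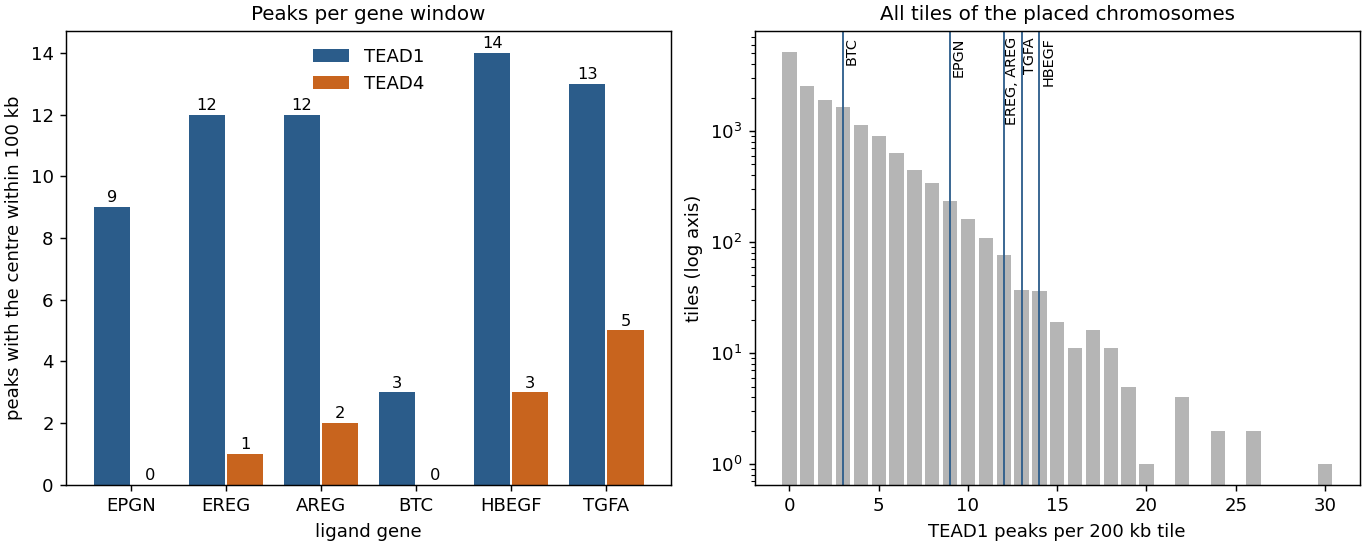
Left, TEAD1 and TEAD4 peaks with the centre within 100 kb of each ligand start site (bars, 1 library each, no error bar). Right, the number of 200 kb tiles (log axis) by their TEAD1 peaks, with blue lines at the count of each gene: HBEGF and TGFA stand at 14 and 13 and BTC at 3, while the 12 peaks of AREG and of EREG are 7 and 8 without the peaks that recur near AREG.

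AREG, the ligand at the downstream end of the joined locus, had the highest-scoring TEAD1 and TEAD4 sites of all 6 genes. The TEAD1 peak 28.19 kb past the AREG start (chromosome 4, 75338636 to 75339458) had a score of 1244, at the 97.9th percentile and rank 784 of the TEAD1 list. A TEAD4 peak (75338853 to 75339284) lay on it, with a score of 780, at the 97.4th percentile and rank 315 of the TEAD4 list. The centres of the pair were 22 bp apart. The other TEAD4 peak of the joined locus lay between EREG and AREG (75274413 to 75274742, score 179, 55.6th percentile), 36.28 kb before AREG and 43.72 kb past EREG. The TEAD1 peak beneath it scored 617, at the 89.7th percentile. Of the 12 TEAD1 peaks in the AREG window, 6 were upstream and 6 downstream.

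EREG, which signals through EGFR and ERBB4, had 4 TEAD1 peaks upstream and 8 downstream, the latter including peaks that also stand in the AREG window. No TEAD1 peak lay between 34.66 kb before its start and the promoter peak 0.74 kb past it. EPGN, the ligand at the upstream end, had 3 TEAD1 peaks upstream and 6 downstream, with scores of 101 to 367. Its highest peak was 77.17 kb upstream (score 367, 77.9th percentile), and a peak 12.3 kb downstream scored nearly the same (362, 77.6th percentile). No TEAD4 peak lay in the EPGN window. The nearest one, the site between EREG and AREG, was 100.4 kb from the EPGN start, just past the limit. Of the 725 tiles with at least 9 TEAD1 peaks, 722 (99.6%) held at least 1 TEAD4 peak, and their median was 4 TEAD4 peaks (interquartile range 3 to 6). The EREG and AREG windows, with 1 and 2 TEAD4 peaks, were below that range, HBEGF with 3 was at its lower end, and TGFA with 5 was within it. These tiles held up to 30 TEAD1 peaks, only 235 of them held exactly 9, and they were not matched to the windows by TEAD1 count or score. The place of a window against that range is therefore not read as a lack of TEAD4. EREG and AREG reached 9 TEAD1 peaks only with the peaks that recur near AREG. Without those they had 8 and 7, so these tiles may not be their match.

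BTC, a ligand of EGFR and ERBB4, had the fewest peaks. Its 3 TEAD1 peaks were all upstream of the start, at 11.19 kb (score 268), 26.53 kb (score 96.1) and 44.34 kb (score 145), and none met TEAD4. The 100 kb downstream of the BTC start held no peak of any list. A TEAD1 peak with TEAD4 stood just outside, 11.76 kb beyond the edge on the AREG side (75607836 to 75608428, score 553). On the other side the next TEAD1 peak was 392.06 kb beyond the edge. The 209.0 kb between the AREG and BTC windows held 15 TEAD1 peaks, or 7.18 per 100 kb, and 2 TEAD4 peaks. By the same measure the joined locus had 5.35 TEAD1 peaks per 100 kb, the BTC window 1.5 and the average tile 1.23. The partners of all 6 TEAD1 pairs that recur near AREG stand in the stretch between the windows. The joined locus holds 5 peaks of these pairs and had 13 TEAD1 peaks without them. Both densities include pair peaks, so they do not rank the stretch against the joined locus.

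HBEGF, whose precursor is also the receptor of diphtheria toxin, had 12 of its 14 TEAD1 peaks downstream of the start. Of these, 5 lay within 25 kb and 3 more within 50 kb. The stretch from 54.36 kb before the start to 1.48 kb past it held no TEAD1 peak. The peak 23.43 kb past the start (chromosome 5, 139702161 to 139703351) had a score of 1004, at the 96.3rd percentile, a width of 1191 bp, and a TEAD4 peak on it (139702801 to 139703346, score 299, 78.7th percentile). The other 2 TEAD4 peaks were 86.95 kb (score 250) and 94.89 kb (score 523, 92.7th percentile) past the start, on TEAD1 peaks that scored 452 and 817. The remaining 11 TEAD1 peaks scored from 85.1 to 306. HBEGF peaks stood closest together, with a median of 5.05 kb between neighbouring TEAD1 centres, against 10.68 kb at TGFA and 20.21 kb at the joined locus.

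TGFA, an EGFR ligand made by many epithelial tumours, had the most TEAD4 peaks. Of its 13 TEAD1 peaks 9 were downstream and 4 upstream of the start, and 4 met TEAD4. The highest TEAD1 peak, 69.64 kb downstream (chromosome 2, 70710867 to 70712145, score 1064, 96.8th percentile), was 1279 bp wide and carried 2 separate TEAD4 peaks (scores 101 and 149). The highest TEAD4 score at TGFA, 406 (87.7th percentile), was at another site, 29.47 kb downstream (70751412 to 70751950), where TEAD1 scored 330. The order of sites by score thus differed between the TEAD1 and TEAD4 lists here. The other TEAD4 peaks lay 57.01 kb downstream (score 177) and 42.84 kb upstream (score 153), on TEAD1 peaks that scored 504 and 290.

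All 10 TEAD4 peaks at the ligand loci overlapped TEAD1 (100%, exact 95% interval 69.2 to 100%), and so did 97.1% of the whole TEAD4 list. Their centres were a median of 61 bp from the TEAD1 centre (range 22 to 318 bp). Conversely, TEAD4 was present at 9 of the 48 TEAD1 peaks (18.8%, interval 8.95 to 32.6%). The share in the whole TEAD1 list was 30.6%, which is inside that interval. By locus the counts were 4 of 13 at TGFA, 3 of 14 at HBEGF, 2 of 18 at the joined locus and 0 of 3 at BTC. The exact intervals of these shares overlap (9.09 to 61.4% at TGFA, 4.66 to 50.8% at HBEGF, 1.38 to 34.7% at the joined locus and 0 to 70.8% at BTC), so the loci could not be ordered by it.

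TEAD1 scores at the ligand loci had a median close to that of the whole list. The median score of the 48 peaks was 175 (interquartile range 101 to 309), beside 177 (113 to 333) for all TEAD1 peaks, and the median width was 568 bp beside 552 bp. Medians by locus were 206 at the joined locus, 172 at TGFA, 145 at BTC and 131 at HBEGF. The HBEGF locus held both very high and very low scores: 7 of its 14 peaks were below the 20th percentile, and 2 were above the 90th. Of the 48 peaks, 13 fell at or below the 25th percentile of TEAD1 scores, 12 between the 25th and the 50th, 13 between the 50th and the 75th, and 10 above. The loci with many TEAD1 peaks thus drew them from the whole range of scores.

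TEAD4 stood on the higher-scoring TEAD1 peaks. The median TEAD1 score was 617 at the 9 sites shared with TEAD4 (range 290 to 1244), and 164 at the other 39 (range 85.1 to 640). In the whole list these medians were 452 and 136. None of the 25 ligand peaks at or below the 50th percentile met TEAD4 (5.98% of the list's peaks there), 2 of 13 did between the 50th and 75th (28.6% of the list) and 7 of 10 above the 75th (81.7% of the list). The 3 peaks above the 75th percentile without TEAD4 were all in the joined locus, at 77.17 kb before EPGN (score 367), 12.3 kb past EPGN (score 362) and 16.03 kb before AREG (score 640).

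**Figure D3:**
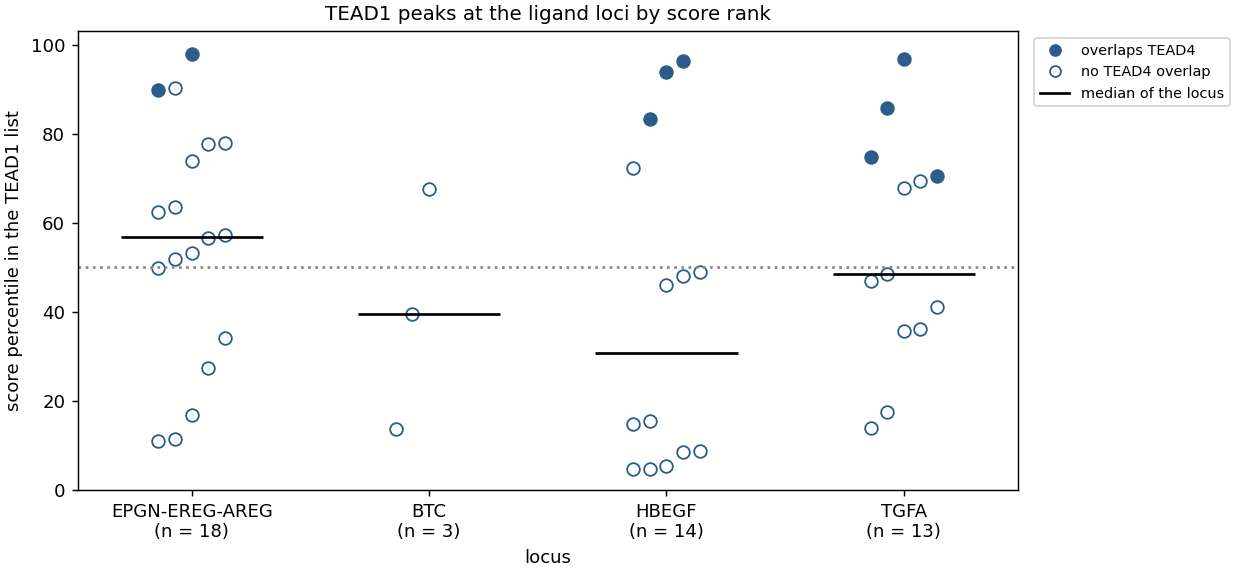
Percentile of each TEAD1 peak's score within the TEAD1 list, by locus; filled points overlap a TEAD4 peak, open points do not, black bars are locus medians and the dotted line is the middle of the list. All filled points lie at or above the 70.5th percentile, and 3 open points in the joined locus lie above the 75th.

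No HA-YAP5SA, YAP or TAZ peak stood at any of the 6 genes. For TAZ, whose list holds 153 peaks, no share of TEAD1 peaks or of tiles is given. Its absence here therefore has no value to be read against. None of the 48 TEAD1 peaks overlapped HA-YAP5SA, which allows a share of up to 6.25%, beside 2.06% of all TEAD1 peaks. None overlapped YAP, beside 0.210% of all TEAD1 peaks. None of the 10 TEAD4 peaks overlapped HA-YAP5SA, beside 6.28% of all TEAD4 peaks, or YAP, beside 0.624%. A count of 0 of 10 allows up to 30.0% by the limit of 3 peaks, and up to 30.8% by the exact interval. At this number of peaks a lower share at the ligand genes than elsewhere was not detectable. Above the 90th percentile of TEAD1 scores 17.3% of the list's peaks carry HA-YAP5SA, and 5 ligand peaks stand there, with scores of 640, 817, 1004, 1064 and 1244. Of the tiles with at least 9 TEAD1 peaks, 26.9% held an HA-YAP5SA peak, against 4.87% of all tiles. Most of these dense tiles thus held none, as did the HBEGF and TGFA windows and the overlapping windows of EPGN, EREG and AREG. These windows are too few for that to be read as a lack of HA-YAP5SA. A YAP peak stood in 1.79% of the tiles with at least 9 TEAD1 peaks and 0.880% of all tiles.

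The nearest HA-YAP5SA peaks were megabases away. The shortest distance was 2018.7 kb, upstream of TGFA (chromosome 2, 72799756 to 72800006, score 143). For HBEGF it was 2555.8 kb (chromosome 5, 137170282 to 137170525, score 150). For the 4 genes on chromosome 4 it was the same peak (79097851 to 79098002, score 88.4), 3378.0 kb from BTC and 3787.1 kb from AREG. All 3 of these HA-YAP5SA peaks overlapped both TEAD1 and TEAD4. The nearest YAP peak was 6908.7 kb from EPGN, 19785.4 kb from HBEGF and 19086.0 kb from TGFA. The nearest TAZ peak was 16863.3 kb from TGFA and at least 59778.8 kb from the other genes. The YAP and TAZ lists hold only 454 and 153 peaks, so these distances are not read as a trait of the genes.

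The hg19 build annotates a near-identical second copy of AREG, named AREGB, between AREG and BTC, and the RefSeq table of GRCh38.p14 lists AREGB as another name of AREG. How the authors treated reads that match several places is not given in the sources used here. TEAD1 peaks recurred at a fixed distance there. Among the 33 TEAD1 peaks from the EPGN side to the BTC window, 6 pairs were 169681 to 169790 bp apart, while no other distance above 20 kb gathered more than 3 pairs (within 100 bp). The first 4 pairs are consecutive around AREG, at 16.03 and 11.88 kb before and 1.69 and 6.27 kb past its start. Their scores were 640 and 445, 242 and 287, 190 and 108, and 184 and 252, with the peak nearer to AREG first.

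The last 2 pairs, 98.97 and 110.21 kb past AREG, had unequal scores (93.4 and 383, 251 and 94.7), and the 3 peaks between 6.27 and 98.97 kb past AREG have no partner. The peak with a score of 1244 past AREG and the TEAD1 peak with TEAD4 before it are not among the pairs. The peak 16.03 kb before AREG, the one ligand peak above the 90th percentile of TEAD1 scores without TEAD4, belongs to a pair. Of the list's peaks above that percentile, 97.0% overlap TEAD4. The part of the second copy in these values was not tested.

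**Figure D4:**
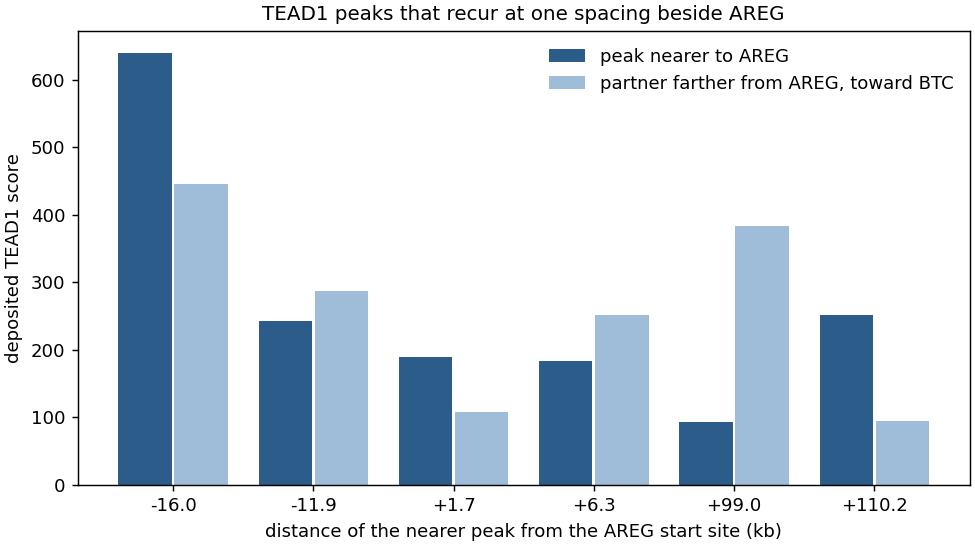
Deposited TEAD1 scores of the 6 pairs of peaks that recur about 169.7 kb apart beside AREG (bars, 1 library, no error bar), ordered by the distance of the nearer peak from the AREG start in kb. The first 4 pairs, from 16.03 kb before to 6.27 kb past the start, have scores of 184 to 640 near AREG and 108 to 445 at the partner.

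The window limit of 100 kb itself passes close to some peaks. The outermost TEAD1 peak inside the AREG window was 1.03 kb from the edge (score 93.4) and the next one 0.47 kb beyond it (score 152). On the EPGN side a peak lay 0.49 kb beyond the edge (score 185). At HBEGF the TEAD1 and TEAD4 peaks with scores of 817 and 523 were 5.18 and 5.11 kb inside the edge. At TGFA the nearest TEAD1 peak outside was 10.19 kb beyond the edge (score 129).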

How the data were processed

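HuCCT1 chromatin was cross-linked, sonicated and precipitated, and libraries were sequenced, per the labels' protocols. Bowtie2 and hg19 are named in the submitters' processing notes; of the peak caller the sources used here give no version, threshold or control, though peak names begin with MACS. Each of the 5 deposited lists holds 1 library and gives a score per peak, computed by the authors on an unstated scale, so scores were ranked only within a list. Lists with a header were read as counted from 1 and the others as BED, so starts are uncertain by 1 bp. Libraries were grouped by title.

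The 6 genes, the windows and the descriptions were chosen with earlier results of these data known. Peaks with the centre within 100 kb of a start site were taken, and peaks overlapped when they shared at least 1 bp. No test was run, since each group has 1 library; counts stand beside those of whole lists and of 200 kb tiles. Shares carry exact 95% Clopper-Pearson intervals, and 3 peaks is taken as the upper limit of a count of 0. Named peaks are the nearest TEAD1 peak of each gene, the highest-scoring TEAD1 and TEAD4 peak of each locus and any HA-YAP5SA, YAP or TAZ peak; others named were chosen after their values were seen. The AREG pairs were also found after the data were examined. Alternatives were windows of 50 and 200 kb, any base in the window, a 50% overlap, centres within 500 bp, scores at or above the list's median, shifted tiles, each locus left out, and, added later, the AREG pairs left out. Window and overlap counts were tested on simulated data with spaced peaks, where all 80 planted window counts and all 20 planted overlap counts came back. Planted peaks lay inside the windows of AREG, BTC, HBEGF and TGFA, and decoys far outside. Peaks at a window edge, near the EPGN start or close to each other were therefore not tried. Promoter sequences and gene order are from RefSeq (GRCh38.p14), matched by symbol for 6 of 6 genes. Software was SciPy 1.17.1, pandas 2.3.3, NumPy 2.4.6, matplotlib 3.10.9 and Python 3.11.15.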

Additional observations from a re-analysis of the deposited data

How the results depend on the processing

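The absence of HA-YAP5SA, YAP and TAZ peaks held with windows of 200 kb and with any base in the window. Windows of 50 kb and a cut at the median score of each list only remove peaks, so they could not have changed it. The share of TEAD1 peaks with TEAD4 ranged from 15.2 to 30.4% and the median TEAD1 score from 165 to 197, both inside the interval of the reported value, in all alternatives run. The 30.4% (7 of 23) came from cutting both the TEAD1 and the TEAD4 list at its median score. A whole-list share at that cut is not given, so it cannot be set beside the 30.6% of the uncut lists. With windows of 50 kb, HBEGF had 8 TEAD1 peaks, TGFA 8, and TEAD4 5 peaks in all. With windows of 200 kb, the joined EPGN, EREG and AREG locus had 28 TEAD1 peaks and BTC 11, against 3 with windows of 50 and 100 kb. These wider windows reach into the stretch between AREG and BTC, so both counts take in further peaks of the AREG pairs. Counts without those peaks are not given for windows of 200 kb. Among peaks at or above the list's median score, 23 of 48 TEAD1 peaks were left in all. These were 12 of 18 at the joined locus, 6 of 13 at TGFA, 4 of 14 at HBEGF and 1 of 3 at BTC. The loci thus lost unlike parts of their peaks, and HBEGF no longer had more than TGFA. Without the 5 recurring peaks near AREG the joined locus held 13 TEAD1 peaks, the AREG window 7 and the EREG window 8. No paired analysis was possible because each group has 1 library. The number of peaks, not a known depth, limits these comparisons. A share of HA-YAP5SA at the ligand TEAD1 peaks below 6.25% (7.40% by the exact interval) cannot be told from 0.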
